A study of Mus musculus with 24 samples.

Results

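Meox1 and Meox2, the 2 members of the mouse Meox homeobox family, were followed among the 13803 genes measured in sorted kidney stroma. Both were chosen by name after earlier results on these data were known, among them a higher Meox1 level in beta-catenin deficient stroma. Differences of the pair between groups are therefore given as descriptions with their standard errors (SE), without a test. Messenger RNA had been sequenced from stromal cells that carried FoxD1Cre-eGFP and were isolated by fluorescence-activated sorting from dissociated embryonic kidneys. There were 24 libraries in 8 groups of 3, at E12.5 and E13.5 (E, embryonic day). Beta-catenin deficient cells (beta-catSD, SD below) and their wild-type (WT) controls were on a C57BL/6 background. Beta-catenin stabilised cells (beta-catSO, SO below) and their WT controls were on a CD1 background. FoxD1Cre-eGFP was shared by all 8 groups. It places Cre and eGFP under the control of Foxd1, so cells outside that lineage were not targeted by design. Which floxed or stabilised alleles were used is not stated in the labels. The series text gives 3 kidneys per genotype, and nothing says whether replicate libraries came from separate animals. Each p below therefore measures the spread between these libraries, which may be technical. Strain goes with the mutant line, so SD and SO were each compared with WT of their own strain and stage.

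MEOX1 and MEOX2 are transcription factors that bind DNA through a homeodomain, and they are best known from the somites, the segments of paraxial mesoderm that give rise to vertebrae, ribs and skeletal muscle. MEOX1 is needed for the sclerotome, the part of the somite that forms the axial skeleton, and MEOX2 for limb muscle. Both are also expressed in mesenchyme and vascular cells, where they have been linked to the control of proliferation. Beta-catenin carries the canonical Wnt signal into the nucleus, where it acts with TCF and LEF factors.

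The paralogs lie on different chromosomes of GRCm38 (mm10). Meox1 (ENSMUSG00000001493.9) spans chr11:101877510-101894374 on the minus strand, and Meox2 (ENSMUSG00000036144.6) spans chr12:37108540-37179534 on the plus strand, each with 3 exons. No other gene matched either transcript with at least 95% identity over at least 200 bases, so neither gene had a near-identical copy that could take its reads. Meox1 overlaps the antisense gene Gm11551 (chr11:101886237-101891206), and Meox2 overlaps the sense intronic gene Gm48617, neither of which was analysed here. Strand-specific counting is not stated in the sources, so reads from Gm11551 could not be told apart from Meox1 reads.

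The libraries held 6.18 to 21.2 M reads each (M, mega), and levels are given as log2 CPM, where CPM stands for counts per mega-read. The stroma markers Col1a1 and Col3a1 were high, and Foxd1 had 1666 to 9599 reads in every library. The Wnt target Axin2 was lower in SD (-1.02 ± 0.11 on the log2 scale, SE, mean of the stages) and higher in SO (3.60 ± 0.11), with adjusted p of 2.06e-06 and 6.63e-17 by limma. Ctnnb1, the gene of beta-catenin, fell by 0.24 in SD (adjusted p = 0.00193 by limma), and Foxd1 fell by 1.02 in SO (adjusted p = 1.56e-07 by limma). CD1 WT E13.5 replicate 1 stood apart in ureteric bud and endothelial markers. Its summed ureteric bud markers reached 329.95 CPM against 54.0 and 62.6 in the other libraries of its group, and its endothelial markers reached 825 CPM against 85.9 and 48.0. The Meox2 differences that rest on this library are given with and without it. Other WT libraries held marker RNA that the rest of their group lacked. C57BL/6 WT E12.5 replicate 3 had 3784 CPM of liver markers against 1.47 and 0.58. Its macrophage markers were 638 CPM against 102 and 115. CD1 WT E13.5 replicate 3 had 811 CPM of liver markers against 0.48 and 0.44.

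Meox1 was the abundant member of the pair, and its level separated the genotypes. In C57BL/6 WT the 3 libraries read 5.62, 5.57 and 5.39 log2 CPM at E12.5 and 5.41, 5.44 and 4.92 at E13.5. In SD they read 6.82, 7.14 and 7.38 at E12.5 and 7.23, 7.06 and 7.12 at E13.5. The 6 SD libraries thus all lay above the 6 C57BL/6 WT libraries. In CD1 WT the levels were 5.27, 5.45 and 5.70 at E12.5 and 5.46, 5.14 and 5.09 at E13.5. In SO they were 4.21, 4.50 and 4.75 at E12.5 and 3.94, 3.15 and 3.28 at E13.5. The 6 SO libraries all lay below the 6 CD1 WT libraries, and the 12 WT libraries of both strains kept within 4.92 to 5.70. These values rest on 114 to 1765 Meox1 reads per library, 13160 in all, and the pooled standard deviation within groups was 0.26 on the log2 scale.

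**Figure D1:**
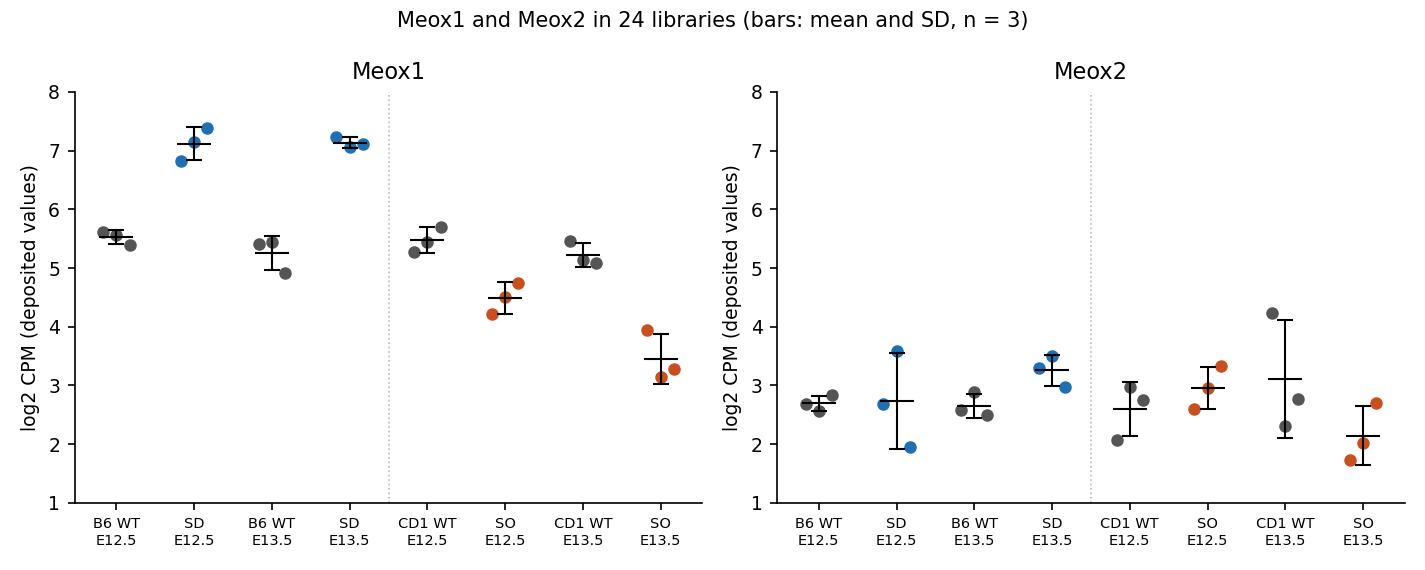
Deposited log2 CPM of Meox1 (left) and Meox2 (right) in each of the 24 libraries, by group, with bars for the mean and standard deviation of 3 libraries. Meox1 lies above 6.8 in all SD libraries, between 4.92 and 5.70 in WT and below 4.8 in all SO libraries, whereas the Meox2 groups overlap in most comparisons.

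At E12.5 Meox1 was 3.01-fold higher in SD than in C57BL/6 WT, a log2 difference of 1.59 ± 0.19 (SE, n = 3 and 3). All 3 SD libraries lay above all 3 WT libraries, as they did for 8.64% of all genes in this comparison, and the difference ranked 150 from the top of 13803. At E13.5 Meox1 was 3.68-fold higher, a log2 difference of 1.88 ± 0.19, which ranked 63. The libraries again did not overlap, a pattern that 10.1% of genes showed. Averaged over the stages the difference was 1.74 ± 0.13 (3.33-fold), and it ran from 1.65 to 1.81 when each of the 12 libraries was left out in turn. The 2 stages differed in this effect by 0.29 ± 0.26, about the size of its error.

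In SO the order was the opposite. At E12.5 Meox1 was 1.98-fold lower than in CD1 WT, a log2 difference of -0.99 ± 0.19, and 14% of genes had all 3 SO libraries below all 3 WT libraries as Meox1 did. At E13.5 it was 3.42-fold lower, a log2 difference of -1.77 ± 0.19, in a comparison where 13.1% of genes showed the same separation. The mean of the stages was -1.38 ± 0.13 (2.60-fold lower), and it ran from -1.50 to -1.30 with each library left out in turn. The effect was larger at E13.5 than at E12.5 by -0.78 ± 0.26, close to 3 times its standard error. A stage difference of the SO effect was called in 1.33% of all genes. In sorted bulk samples, fewer cells that express a gene and less of its RNA per cell cannot be told apart.

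Between the stages the Meox1 libraries were separate in SO and overlapped in the other 3 kinds of cells. From E12.5 to E13.5 it was 2.04-fold lower in SO (-1.03 ± 0.19), and the 3 SO libraries at E13.5 all lay below the 3 at E12.5, as for 14.5% of genes. The stage differences were -0.27 ± 0.19 in C57BL/6 WT, -0.25 ± 0.19 in CD1 WT and 0.02 ± 0.19 in SD. Between the WT strains Meox1 differed by less than 1 standard error, with C57BL/6 minus CD1 differences of 0.05 ± 0.19 at E12.5 and 0.03 ± 0.19 at E13.5. From high to low the group means were SD E13.5 (7.14 ± 0.09, s.d. of 3 libraries), SD E12.5 (7.12 ± 0.28), C57BL/6 WT E12.5 (5.52 ± 0.12), CD1 WT E12.5 (5.47 ± 0.22), C57BL/6 WT E13.5 (5.26 ± 0.29), CD1 WT E13.5 (5.23 ± 0.20), SO E12.5 (4.49 ± 0.27) and SO E13.5 (3.45 ± 0.42). The 2 SD groups overlapped, as did the 4 WT groups, while the steps from SD to WT, from WT to SO E12.5 and from there to SO E13.5 left no overlap.

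Per length, as CPM per kb of exon, Meox1 went from 63.1 ± 12.03 (s.d. of 3 libraries) and 63.3 ± 3.91 in SD at E12.5 and E13.5 to 10.2 ± 1.87 and 5.07 ± 1.57 in SO. The WT groups lay between, at 20.7 ± 1.69 and 17.4 ± 3.27 in C57BL/6 and 20.1 ± 3.05 and 16.9 ± 2.44 in CD1. On this scale Meox1 stood at percentile 95.3 and 95.2 of the 13660 genes with a length in SD, from 76.8 to 80.9 in the WT groups, and at 63.6 and 45.5 in SO. Among 74 homeobox and paired-box genes from lists that left out the Hox clusters, Meox1 ranked 2 in both SD groups. It ranked 7 or 8 in the WT groups and 16 and 20 in SO. The zinc finger homeobox gene Tshz2 was not on these lists either. Over the 24 libraries Hoxd11 had a mean of 7.16 log2 CPM and Tshz2 of 7.19.

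Meox2 was scarce in every group and did not follow the same order. Its libraries read 2.69, 2.57 and 2.83 log2 CPM in C57BL/6 WT at E12.5 and 2.57, 2.88 and 2.50 at E13.5. In SD they read 2.68, 3.58 and 1.95 at E12.5 and 3.29, 3.498 and 2.98 at E13.5. SD replicates 2 and 3 at E12.5 lay above and below all 3 of their WT libraries, so this group spanned its controls. In CD1 WT the levels were 2.08, 2.97 and 2.75 at E12.5 and 4.24 (4.235), 2.31 and 2.77 at E13.5. In SO they were 2.60, 2.95 and 3.32 at E12.5 and 1.73, 2.01 and 2.69 at E13.5. The highest of the 24 values belonged to CD1 WT E13.5 replicate 1, the library that stood apart.

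Meox2 had 26 to 313 reads per library and 1750 in all, and its pooled standard deviation within groups was 0.55, against 0.26 for Meox1. Counting error alone did not cover the widest gaps. For CD1 WT E13.5 the exact 95% counting interval was 16.8 to 21.004 CPM in replicate 1, against 3.36 to 6.86 in replicate 2 and 5.05 to 8.87 in replicate 3. For SD E12.5 it was 9.65 to 14.5 CPM in replicate 2 and 2.48 to 5.57 in replicate 3. These intervals cover counting error only, because no molecular identifiers marked the molecules.

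At E12.5 the Meox2 log2 difference between SD and WT was 0.04 ± 0.41 (SE, n = 3 and 3). At E13.5 it was 1.52-fold higher in SD, a log2 difference of 0.60 ± 0.41, and all 3 SD libraries lay above all 3 WT libraries, the pattern that 10.1% of genes showed. In SO it was 0.36 ± 0.41 above CD1 WT at E12.5 and -0.96 ± 0.41 from it at E13.5, and the libraries overlapped at both stages. Without CD1 WT E13.5 replicate 1 the E13.5 difference was -0.40 ± 0.38. The means of the stages were 0.32 ± 0.29 in SD and -0.30 ± 0.29 in SO, each near 1 standard error, and single libraries moved both. The SD mean was 0.11 ± 0.28 without SD E12.5 replicate 2 and 0.52 ± 0.28 without replicate 3 of that group. The SO mean was -0.018 ± 0.25 without CD1 WT E13.5 replicate 1 and -0.50 ± 0.28 without replicate 2 of that group, and the other left-out libraries gave values in between.

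From E12.5 to E13.5 Meox2 differed by -0.04 ± 0.41 in C57BL/6 WT, 0.52 ± 0.41 in SD and -0.82 ± 0.41 in SO. In CD1 WT the stage difference was 0.51 ± 0.41 with all libraries and -0.06 ± 0.38 without replicate 1 of E13.5. All 4 of these comparisons had overlapping libraries. The SO effect on Meox2 differed between the stages by -1.32 ± 0.58, and by -0.76 ± 0.51 without that library. C57BL/6 minus CD1 WT differences were 0.10 ± 0.41 at E12.5 and -0.45 ± 0.41 at E13.5, the second of which became 0.11 ± 0.38 without it. The Meox2 group means ran from 3.26 ± 0.26 (s.d. of 3 libraries) in SD E13.5 down through CD1 WT E13.5 (3.11 ± 1.00), SO E12.5 (2.96 ± 0.36), SD E12.5 (2.74 ± 0.81), both C57BL/6 WT groups (2.70 ± 0.13 and 2.65 ± 0.20) and CD1 WT E12.5 (2.60 ± 0.46) to SO E13.5 (2.14 ± 0.50), and each group overlapped its neighbour in that order.

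**Figure D2:**
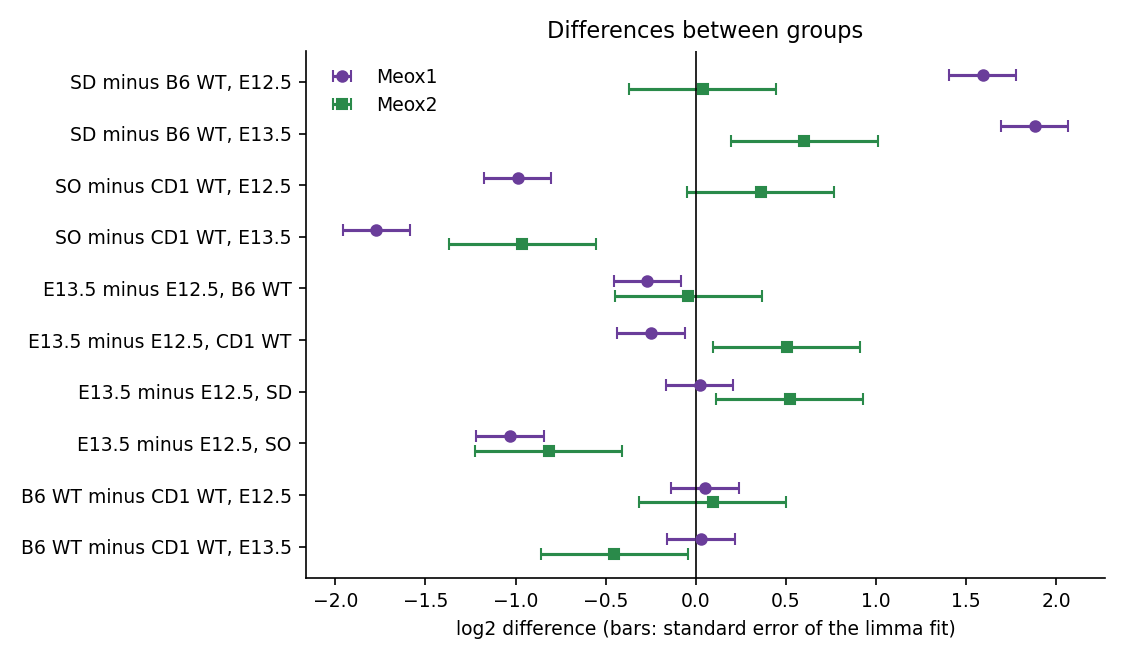
Log2 differences of Meox1 (circles) and Meox2 (squares) between groups, with bars for the standard error of the limma fit. Meox1 lies at 1.59 and 1.88 in SD and at -0.99 and -1.77 in SO, while the Meox2 bars are more than 2 times as wide and 4 of the 10 cross 0.

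The ratio of the paralogs differed with the genotype. Per length, Meox1 exceeded Meox2 22.1-fold in SD at E12.5 (12.53 to 45.7 over the 3 libraries) and 15.6-fold at E13.5 (12.52 to 18.7). In C57BL/6 WT the ratio was 7.53 at E12.5 and 6.44 at E13.5. In CD1 WT it was 7.77 and 4.61, the second with a range of 2.47 to 7.51 and its lowest value in replicate 1, and in SO 3.05 and 2.63. Meox1 was the higher of the paralogs in all 24 libraries, with a lowest ratio of 1.59 in an SO E13.5 library. Over the 24 libraries the log2 levels of Meox1 and Meox2 correlated with r = 0.36, and their deviations from the group means with r = 0.14. Without CD1 WT E13.5 replicate 1 these were 0.44 and -0.04, so the sign of the second rested on that library. Over the 8 group means, with all libraries included, r was 0.60. These correlations are descriptions over libraries that share groups and preparation.

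Among all genes, 172 (1.25%) were called higher in SD and lower in SO in the means of the stages, and 15 (0.109%) were also at least 2-fold changed in both. These counts run over every gene and so include Meox1, for which no call is claimed. A call here is a Benjamini-Hochberg adjusted p under 0.05 by limma over all 13803 genes. Ordered by the smaller of the 2 changes, Meox1 stood at rank 5, after Igfbp6, Ankrd63, Reln and Chl1. Because the pair was chosen with these contrasts in view, the inclusion of Meox1 and its place are descriptions and no test. SD and SO share no control libraries.

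Other homeobox and paired-box genes, from lists that left out the Hox clusters, were set beside Meox1. Of 72 such genes analysed from lists of the class, 2 were called higher and 4 lower in SD (8.33%, against 7.17% of all genes), and 28 higher and 13 lower in SO (56.9%, against 18.5%). Of the 28, 12 had a mean below 0 log2 CPM in CD1 WT, and genes so low in WT could have entered the table through their level in SO. Among the 42 with a mean above 1 log2 CPM over all libraries, 14 were called higher and 12 lower in SO (61.9%, against 19.9% of such genes in all). That mean includes the SO libraries, so a gene high in SO could pass it through them, and these counts are descriptions. By limma 0 of the 72 were called both higher in SD and lower in SO, as they were with voom weights, beside 1.25% of all genes, a share at which few or none of 72 would be called. At an unadjusted p of 0.05 in both contrasts 6 passed, beside 3.2% of all genes. The zinc finger homeobox gene Tshz2, which was not on these lists, was called in the directions in which Meox1 differed, at 0.52 in SD and -0.52 (-0.515) in SO (adjusted p = 2.79e-06 and 3.74e-07 by limma). The medullary stroma gene Alx1 and Zeb2, a zinc finger homeobox repressor, were called the other way, lower in SD and higher in SO.

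**Figure D3:**
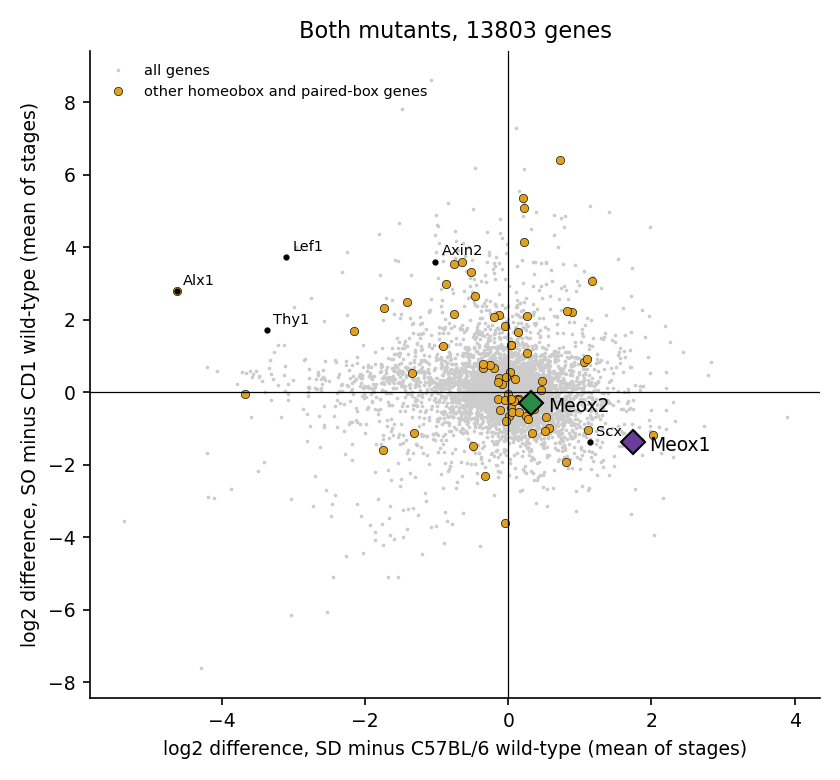
Each point is a gene, with its log2 difference in SD on the horizontal axis and in SO on the vertical axis, both as means of the stages. Meox1 lies to the lower right at 1.74 and -1.38, and Meox2 near the origin at 0.32 and -0.30. Many of the other listed homeobox and paired-box genes, from outside the Hox clusters, lie above the horizontal line, higher in SO. Axin2, Lef1, Thy1 and Scx are labelled for orientation.

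Of the antennapedia class outside the Hox clusters, to which the Meox genes belong, 13 of 55 listed genes were analysed, and 8 were called higher and 0 lower in SO, beside 10.2% and 8.32% of all genes. Of the 8, 6 had a mean below 0 log2 CPM in CD1 WT, among them all 4 described next, so this count is a description of the genes that entered the table. Only 2 of the 13 had a mean above 1 log2 CPM over all libraries, SO included, and both were called higher. The count of 8 became 5 without SO E12.5 replicate 3 or without CD1 WT E13.5 replicate 3. Msx1, a factor of undifferentiated mesenchyme, had 826 reads in the 6 SO libraries and 42 in the 6 WT libraries (adjusted p = 3.79e-05 by limma). Msx2 had 254 against 36 reads (adjusted p = 0.00784), Dlx5 104 against 6 (0.0042) and Barhl2 61 against 0 (0.000985). Meox1, with 932 reads in SO against 2548 in CD1 WT, lay on the other side of its controls from these 4 genes. In SD the blood and endothelial factor Hhex fell, with 13 against 172 reads (adjusted p = 0.000371 by limma), and Hlx, a factor of visceral mesenchyme, rose by 1.06 ± 0.26 (adjusted p = 0.0112). Hlx was called higher in SO as well, by 0.83 ± 0.26 (adjusted p = 0.0257 by limma). That SO call was lost in 6 of 12 fits with a library left out.

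Outside that class, the limb and craniofacial mesenchyme factors Prrx1 and Prrx2 were higher in SO by 1.31 ± 0.12 and 1.29 ± 0.13 (adjusted p = 1.94e-08 and 1.45e-07 by limma). Pitx1, a hindlimb factor, rose by 2.99 ± 0.40 (adjusted p = 5.53e-06), and Alx1 changed by -4.63 ± 0.40 in SD and 2.79 ± 0.40 in SO (adjusted p = 1.62e-07 and 1.80e-05). Among TALE genes, Tgif1, a TGF-beta repressor, rose in SO by 0.75 ± 0.09 (adjusted p = 2.44e-06 by limma). Irx5 had 604 against 18 reads and Irx6 201 against 6 in SO (adjusted p = 5.79e-07 and 8.46e-06 by limma). Their CD1 WT means were -3.15 and -3.34 log2 CPM. Both could have entered the analysis through their level in SO, so these values are descriptions. Pknox2, which encodes a TALE homeodomain factor, rose in SD by 0.46 ± 0.08 (adjusted p = 0.000925 by limma). Of the sine oculis, cut and zinc finger types, Cux2, Zfhx4 and Six4 rose in SO by 3.32 ± 0.23, 2.08 ± 0.15 and 1.08 ± 0.13 (adjusted p of at most 2.27e-06 by limma). Zeb2 changed by -0.35 ± 0.07 in SD and 0.78 ± 0.07 in SO (adjusted p = 0.00374 and 3.48e-08). Cux2, Zfhx4, Zeb2, Pknox2, Pitx1, Prrx1 and Irx6 overlap genes of the opposite strand, whose reads could not be told apart from theirs.

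Of 31 genes of the somite and paraxial mesoderm, the tissue for which Meox1 and Meox2 are best known, 16 were analysed. In SD 2 were called higher and 1 lower, beside 3.46% and 3.71% of all genes, and in SO 7 higher and 4 lower, beside 10.2% and 8.32%. The tendon factor Scx changed in the directions in which Meox1 differed, rising by 1.13 ± 0.17 in SD and falling by 1.38 in SO (adjusted p = 0.000152 and 1.84e-06 by limma). The guidance receptor Epha4 rose in both, by 0.84 ± 0.10 and 1.11 ± 0.10 (adjusted p = 1.44e-05 and 3.32e-08 by limma). Twist1, a mesenchymal bHLH factor, rose in SO by 0.84 ± 0.11 (adjusted p = 5.18e-06 by limma). The list's median log2 difference was 0.07 in SD and 0.62 in SO. Scx overlaps Bop1 on the opposite strand.

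Of 13 genes described elsewhere as regulated by MEOX1 or MEOX2, 8 were analysed. In SO, where Meox1 was low, 4 were called higher and 1 lower, beside 10.2% and 8.32% of all genes. Pax1, a sclerotome factor, rose by 2.65 ± 0.48, Ctgf, a matrix-associated growth factor, by 1.12 ± 0.18 and Tbx18, a somite and ureteric mesenchyme factor, by 0.80 ± 0.11 (adjusted p = 0.000267, 5.94e-05 and 1.40e-05 by limma). Tcf15, a somite bHLH factor, fell by 0.88 (adjusted p = 0.00338 by limma). In SD, where Meox1 was high, Ctgf rose by 0.69 ± 0.18 and Tbx18 fell by 0.45 (adjusted p = 0.0173 and 0.0154 by limma). These 2 were the SD calls, beside 7.17% of all genes. The SD count of 2 became 1, with Tbx18 not called, when C57BL/6 WT E12.5 replicate 2 or replicate 3 of SD at either stage was left out. With only the 12 libraries of the C57BL/6 line the SD call of Ctgf was lost (adjusted p = 0.054). The SD call of Tbx18 was lost in that fit too and with voom weights (adjusted p of at most 0.067 by limma). Pax1 overlaps AI646519, and Tbx18 D030062O11Rik, on the opposite strand.

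The chromosomal surroundings of Meox1 were compared next, as the 5 analysed genes on each side. In SD 2 of 10 were called higher and 0 lower, beside 3.46% of all genes called higher. In SO 4 of 10 were called lower and 0 higher, beside 8.32% called lower. Etv4, an ETS factor of FGF and Ret signalling whose gene has its lower end 108 kb below the lower end of Meox1 (chr11:101769742-101785371), rose by 0.70 ± 0.13 in SD and fell by 1.19 in SO (adjusted p = 0.00131 and 3.79e-07 by limma). Mpp2, a membrane scaffold gene, rose by 0.40 ± 0.09 in SD and fell by 0.53 in SO (adjusted p = 0.00848 and 0.000208 by limma). The phosphatase gene Dusp3 and the scaffold gene Mpp3 fell in SO by 0.80 and 0.57 (adjusted p = 0.00228 and 0.0117 by limma). Between Meox1 and Dusp3 lies Sost, at a mean of -1.32 log2 CPM, which was called in neither mutant, and Dhx8, beyond Etv4, differed by -0.01 ± 0.06 and -0.02 ± 0.06. Across the 24 libraries Meox1 and Etv4 correlated with r = 0.86, but their deviations from the group means with r = 0.05. With only the 12 libraries of the CD1 line the SO call of Mpp3 was lost (adjusted p = 0.065). Dusp3 shares near-identical sequence with the overlapping gene Gm20659.

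Around Meox2 the called neighbours moved the other way. In SD 2 of 10 were called lower and 0 higher, beside 3.71% of all genes called lower, and in SO 4 of 10 were called higher and 0 lower, beside 10.2% called higher. Arl4a, a small GTPase gene whose lower end lies 2897 kb above that of Meox2, fell by 0.54 in SD and rose by 1.99 ± 0.12 in SO (adjusted p = 0.00652 and 2.36e-11 by limma). With voom weights its SD call was lost (adjusted p = 0.0636). Ifrd1, a transcriptional co-regulator, fell by 0.31 in SD and rose by 0.56 ± 0.07 in SO (adjusted p = 0.00742 and 2.60e-06 by limma), and it shares near-identical sequence with the pseudogene Gm7008. Etv1, a paralog of Etv4, and Dock4 were higher in SO by 1.08 (1.075) ± 0.25 and 0.69 ± 0.16 (adjusted p = 0.00324 and 0.00298 by limma). Etv1 shares near-identical sequence with Gm5454. All 5 neighbours below Meox2, Gm5434, Bzw2, Ankmy2, Sostdc1 and Ispd, were called in neither mutant.

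**Figure D4:**
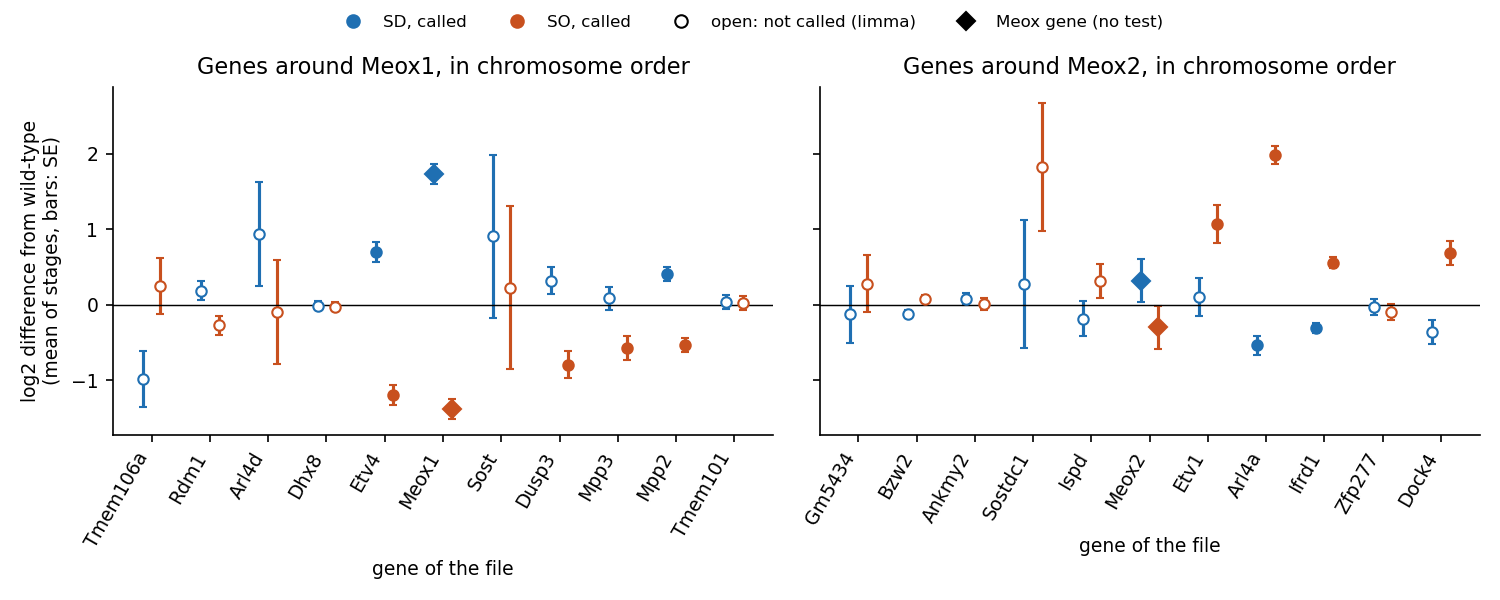
Log2 differences from WT, as means of the stages with bars for the standard error, for Meox1 (left) and Meox2 (right) and the 5 analysed genes on each side in chromosome order. Filled circles are called genes and open circles are not. Etv4 and Mpp2 lie above 0 in SD and below 0 in SO on the Meox1 side, and Arl4a and Ifrd1 show the reverse on the Meox2 side.

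Genes whose level was most like that of Meox1 were taken by Pearson's r of log2 values over the 24 libraries among 12198 genes. The 8 highest were Tshz2 (r = 0.97), Ephb2, Fzd8 and Tmem132e (0.95 each), and Cxxc4, Chl1, Scx and Foxd2 (0.93 each). Tshz2 encodes a zinc finger homeobox factor, Fzd8 a Wnt receptor, Cxxc4 a Wnt inhibitor and Foxd2 a forkhead factor of renal mesenchyme. The 4 lowest were Thy1 (-0.97), Tmtc4 (-0.94), Lef1 (-0.93) and Atrnl1 (-0.93), of which Lef1 is a target and partner of beta-catenin. Since groups that differ by genotype feed these values, the deviations from the group means are given beside them. For Tshz2, Ephb2 and Fzd8 those correlated with Meox1 at 0.45, 0.42 and 0.46, for Cxxc4 and Chl1 at -0.03 and -0.24, and for Lef1 at -0.20. Without CD1 WT E13.5 replicate 1, 7 of the 8 highest genes were the same.

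Meox2 was most like another set, Samd10 (r = 0.82), Uncx (0.79), Cdh4 (0.75), Spock2 (0.74), Six2 (0.71), and Capn6, Sel1l3 and Hook1 (0.69 each). Six2 is the defining factor of nephron progenitors, the cells that neighbour the stroma in the kidney, and Uncx and Spock2 were on the marker list of the same cells. The deviations from the group means correlated more strongly still, at 0.84 for Six2, 0.84 for Uncx and 0.87 for Spock2 (0.77 and 0.82 without CD1 WT E13.5 replicate 1). The 4 lowest genes were Il17d (-0.76), Brms1l (-0.74), Rap1b (-0.68) and Eid2b (-0.66). Without CD1 WT E13.5 replicate 1 only 2 of the 8 highest genes stayed, and Meox2 with Six2 had r = 0.54, or 0.73 for the deviations. Six2 read 6.78 log2 CPM (1824 reads) in that library and 4.06 and 4.15 in the others of its group.

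Over the 15 nephron progenitor markers the correlation of the deviations with Meox2 had a median of 0.51 and ran from -0.56 to 0.87. Of the 15, 8 exceeded 0.5, as did 3.5% of all genes. Without CD1 WT E13.5 replicate 1 the median was 0.29, with a range of -0.31 to 0.82. Then 5 exceeded 0.5, beside 2.07% of all genes. With Meox1 the median was -0.01 (-0.009) and 0 exceeded 0.5, beside 1.68% of all genes, and Meox1 with Six2 had r = 0.20 over the 24 libraries. In single groups the order of the libraries varied. In SD E12.5 replicate 2, which had the most Meox2 (3.58), read 4.67 for Six2, and replicate 3, which had the least (1.95), read 2.41. In C57BL/6 WT the library with the least Meox2 had the most Six2 at both stages, with 2.57 and 2.88 in replicate 2 at E12.5 and 2.50 and 3.97 in replicate 3 at E13.5. How far nephron progenitor RNA among the sorted cells contributed to the Meox2 levels was not tested.

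**Figure D5:**
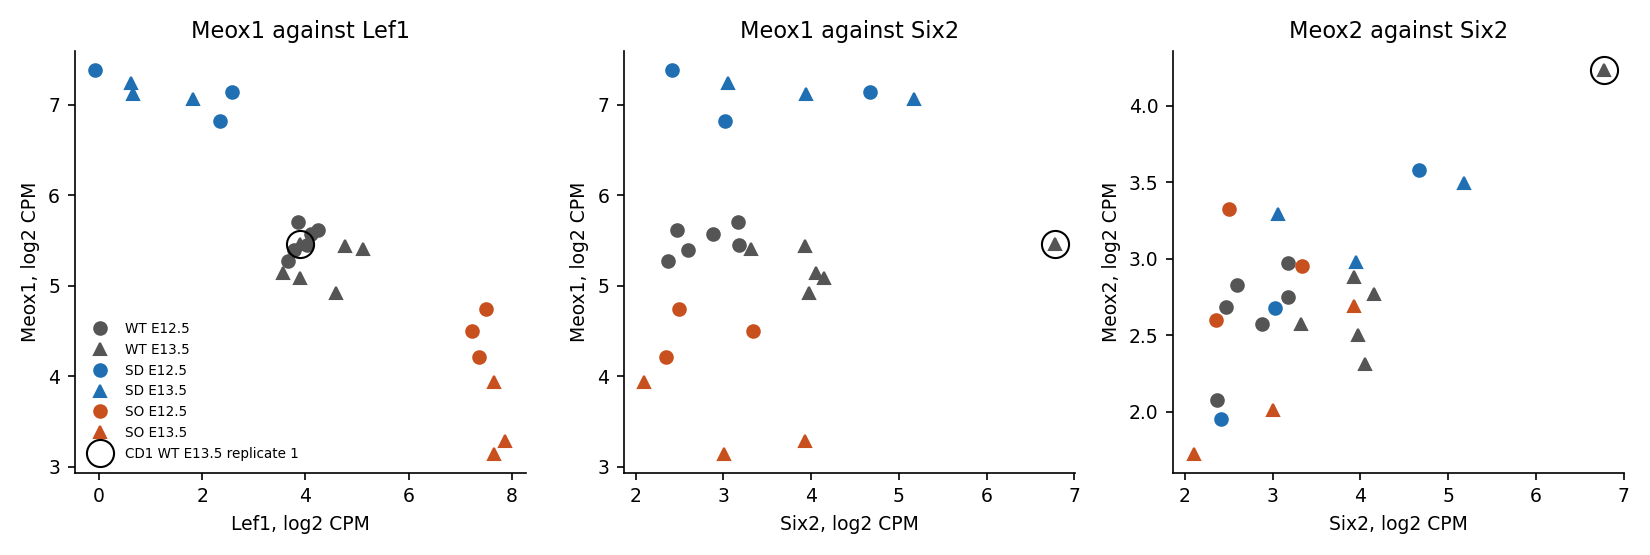
Log2 CPM of Meox1 against Lef1 (left) and Six2 (middle), and of Meox2 against Six2 (right), with 1 point for each of the 24 libraries, coloured by genotype and shaped by stage. Meox1 is lower where Lef1 is higher, from SD through WT to SO, and Meox2 is highest in the circled library, CD1 WT E13.5 replicate 1, which also has the most Six2.

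Markers of other cells moved with the genotype as well. The summed nephron progenitor markers were 937 to 1118 CPM in SD at E12.5 and 1014 to 1185 at E13.5, against 862 to 923 and 948 to 1001 in C57BL/6 WT. In SO they were 615 to 654 and 525 to 631 CPM, against 833 to 865 and 1033 to 1326 in CD1 WT. At each stage they thus lay above WT in SD and below WT in SO, as Meox1 did, but unlike Meox1 they were higher at E13.5 than at E12.5 in both WT strains. Sall1, Wt1, Hoxd11 and Gdnf, at mean log2 CPM of 7.92, 7.58, 7.16 and 6.58, made up most of these sums. By limma 1 of the 15 was called higher and 0 lower in SD (6.67%, near the 7.17% of all genes), and 2 higher and 3 lower in SO (33.3%, against 18.5%). In SD 7 of 10 endothelial and 9 of 10 macrophage markers were called lower, beside 3.71% of all genes, though 0 and 1 with voom weights. In SO 0 of either list passed in the mean of the stages, also at an unadjusted p of 0.05. At E13.5 alone 2 macrophage and 0 endothelial markers were called higher in SO, beside 1177 of all 13803 genes. Macrophage sums at E13.5 were 428 to 1055 CPM in SO against 292 to 384 in CD1 WT, and at E12.5 they overlapped. Of 9 mural markers, genes of pericytes and smooth muscle, Acta2, Rgs5, Myh11, Tagln and Notch3 were called higher and Cspg4 lower in SO, beside 10.2% and 8.32% of all genes. In SD Cspg4, Abcc9 and Kcnj8 were called higher, beside 3.46% of all genes. Their sums were 1019 to 1152 CPM in SO at E13.5 against 501 to 566 in CD1 WT, and 762 to 906 against 665 to 785 at E12.5. In SD they were 703 to 751 and 706 to 852 CPM against 627 to 769 and 635 to 688 in C57BL/6 WT. Of 7 erythroid markers 4 were called lower and 1 higher in SD, beside 3.71% and 3.46% of all genes. In SO 3 of the 7 and 3 of 4 liver markers were called lower, beside 8.32%. With voom weights these counts of called markers were 1 and 6 for the erythroid list and 0 for the liver list. The liver sums were 181 to 194 CPM in CD1 WT at E12.5 and 0.44 to 811 at E13.5, against at most 2.97 in SO. The erythroid sums at E12.5 were 18.8 to 72.7 CPM in SD against 581 to 849 in WT, and 66.4 to 994 in SO against 3259 to 3375 in WT, and at E13.5 mutant and WT libraries overlapped in both lines. Among skeletal muscle markers, Des had 260 to 1264 reads per library, Tnnt1 35 to 162, Actc1 1 to 101 and Tnnt3 2 to 28. Myod1, Myog, Myf5 and Pax7 were not analysed here. The part of these markers, or of the lower Foxd1 in SO, in the Meox1 differences was not tested.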

How the data were processed

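The authors deposited log2 values per gene, which have the scale of log2 CPM as limma's voom makes it, with TMM-scaled library sizes and 0.5 added to each count. HISAT2, HTSeq and limma appear in the submitters' processing notes without versions, with mm10 as the build. From these values whole reads were recovered (100% within 0.1 of a whole read). All columns were matched to libraries by their labels. The log2 values of 13803 genes were fitted with limma 3.58.1 (R 4.3.3), with 8 group means, a mean-variance trend, 16 residual and 6.43 prior degrees of freedom and 14 contrasts. A call was a 2-sided adjusted p (Benjamini-Hochberg, all genes) under 0.05. The fit was tested on simulated data. Members and lists were chosen with earlier results of these data known.

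Genes are named by rule. It takes the pair, Axin2, Lef1, Ctnnb1 and Foxd1, the 4 called members with the smallest p of each list in SD and SO and those called in both, all chromosomal neighbours, and the 8 most and 4 least like genes with a mean log2 CPM above 0. A called gene that the rule names and the members' sequences are not reported here. Gene models are from GENCODE M21 (99.1% of symbols matched), and near-identical transcripts were searched with BLAST 2.17.0. Alternatives were a replicate block, voom weights, only the 12 libraries of a line, log2(CPM + 1), scaling by library totals or by median of ratios, a mean log2 CPM above 1, other correlations and leaving out each library. Figures were made in matplotlib 3.10.9 under Python 3.11.15.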

Additional observations from a re-analysis of the deposited data

Results flagged for a closer look

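In 5 of the 73 named genes the SO effect differed between the stages, and in each it was larger at E13.5. By limma's test of the difference itself (Benjamini-Hochberg over all genes), 183 of all 13803 genes (1.33%) were called. An unadjusted p under 0.05 was reached by 2093 of all genes. The naming rule takes called genes and genes most like the pair, so the count of 5 is a description. Ctgf rose by 2.01 at E13.5 against 0.23 at E12.5, a difference of 1.78 (adjusted p = 0.0138), and Tbx18 by 1.38 against 0.22, a difference of 1.15 (adjusted p = 0.0130). For Prrx1 the difference was 1.00 (0.995165, adjusted p = 0.0383), for Epha4 0.89 (adjusted p = 0.0356) and for Zeb2 0.64 (adjusted p = 0.0337). The SD effect differed between the stages in 0 of the 73 by limma, and in 0 of all 13803 genes, where 753 had an unadjusted p under 0.05. The Meox1 difference in SO was likewise larger at E13.5, and it was given above without a test.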

How the results depend on the processing

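The Meox1 genotype differences kept their sign and stayed within 1 standard deviation of replicates in all 36 values under other settings and all 48 with a library left out. The same numbers for Meox2 held 0 moved values of 36 and 1 of 48, with 2 changes of sign. With each library left out, Meox2 ran from -1.36 to -0.40 in SO at E13.5, from -1.72 to -0.76 in the stage difference of the SO effect, from -0.059 to 0.90 between the stages of CD1 WT and from -0.85 to 0.11 between the strains at E13.5, and each left the range of replicates only without CD1 WT E13.5 replicate 1. Same-numbered libraries did not deviate together (median r = 0.01 (0.0147), from -0.36 to 0.28, over 84 pairs), so the numbers pair nothing. With the replicate block the Meox1 means of the stages were 1.74 ± 0.14 in SD and -1.38 ± 0.14 in SO, and no count of called genes in the lists or among the neighbours changed by over 1.5 times. With only genes above a mean log2 CPM of 1, calls were 1 (SD) and 2 (SO) in the antennapedia class, 6 (SO) in the paired class, 26 (SO) in all homeobox lists and 1 (SD) in the sine oculis, LIM, POU and zinc finger classes, since fewer genes were tested. The last count was also 1 with voom weights and with log2(CPM + 1), where Lhx6 was lost. The genes regulated by MEOX1 or MEOX2 gave 1 in SD with the 12 libraries of the line, which was neither Ctgf nor Tbx18. The Meox2 neighbours gave 1 in SD with voom weights. The cause of these changes was not tested. With each library left out, calls ran from 5 to 9 in the antennapedia class in SO, and in SD from 1 to 3 in the TALE class, from 1 to 2 in the sine oculis, LIM, POU and zinc finger classes and from 1 to 2 among the MEOX-regulated genes. Of the 8 genes most like Meox1, 5 were shared with Spearman's rho and 3 with r over the 8 group means, and of those most like Meox2, 3 and 0, and 2 without CD1 WT E13.5 replicate 1, an alternative chosen after seeing the data. Meox2, with 26 reads in its thinnest library, is the gene that depth limits.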
